A study of Homo sapiens with 12 samples.

Results

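The miRNAs (microRNAs) described here are those read by 6 human probes: hsa-miR-612, hsa-miR-873-3p, hsa-miR-598-3p, hsa-miR-188-5p, hsa-miR-922 and hsa-miR-6721-5p. They are 6 of the 798 miRNA probes of the table and were taken by name. They were chosen by their deposited THP-1 counts, which had looked alike in silenced and scrambled cells while most miRNAs were lower after silencing, and those counts are given as a description with no test. The name list has no threshold, so no probe lies just outside it. The description "unchanged" did not hold for every member: miR-188-5p had 53, 40 and 33 counts in the 3 silenced THP-1 libraries against 68, 80 and 85 in the 3 scrambled ones, with no overlap between the groups.

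The series measured miRNAs in MOLM-14 and THP-1, established human acute myeloid leukaemia lines, with NanoString probes, whose colour codes are counted one by one. Each line had been transduced by lentivirus with a short hairpin RNA specific for MUC1, called silenced here, or with a scrambled control hairpin, called scrambled, with 3 samples in each of the 4 groups. All cells carried a lentivirus, and MUC1 itself was not analysed here. The sources used here do not say how many hairpin sequences were used or whether the samples were separate cultures, so p-values measure the spread between these samples, which may be technical. The source names of the silenced MOLM-14 samples read MUC1, MUC2 and MUC3, whereas each title and each transduction label names MUC1, and the titles were followed.

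A miRNA is cut from a hairpin precursor, and either arm of the hairpin, named 5p or 3p, can become the mature strand that is loaded into an Argonaute protein. Its seed, bases 2 to 8, pairs with target messenger RNAs and lowers their translation or stability. miRNAs whose precursors lie close together are often cut from the same transcript. miR-612 has been described as a restraint on AKT2 in liver cancer cells, and in mouse miR-188 shifts bone marrow stromal cells between bone and fat fates. In this assay a tag is first ligated to each miRNA and a probe then captures the tagged product, so a probe also has some count in the absence of its miRNA, and this background can differ between probes.

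The mature sequences are shown because the probes are directed at them. RefSeq (GRCh38.p14) held 4 of the 6 by name, and the seed is in capitals, written 5′ to 3′.
miR-188-5p: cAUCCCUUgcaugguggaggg
miR-873-3p: gGAGACUGaugaguucccggga
miR-922: gCAGCAGAgaauaggacuacguc
miR-6721-5p: uGGGCAGGggcuuauuguaggag
In that build miR-188-5p lies at chrX:50003517-50003537 on the plus strand, within the gene span of CLCN5. miR-873-3p lies at chr9:28888889-28888910 on the minus strand, within LINGO2. miR-922 lies at chr3:197674498-197674520 on the minus strand, within RUBCN, and miR-6721-5p at chr6:32170084-32170106 on the minus strand, within AGPAT1. The precursor gene of miR-612 lies within the long non-coding RNA NEAT1, and that of miR-598-3p within XKR6. The 6 precursor genes lie on 6 different chromosomes, and the 4 seeds differ from each other and from those of all other measured miRNAs matched by name.

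The 12 libraries held 9002 to 20418 counts in total, and the median probe of a library had 10 to 15.5, so counting error is a large part of every value below. Silenced THP-1 libraries held 14 to 32 probes with at least 30 counts, against 54 to 65 in scrambled THP-1, 28 to 88 in silenced MOLM-14 and 31 to 67 in scrambled MOLM-14. Of 5 myeloid marker miRNAs 4 reached 30 counts in some library, while miR-142-3p, a marker of blood cells in general, stayed between 10 and 23. None of 6 erythroid, endothelial and epithelial markers reached 30 counts, while both lymphoid markers, miR-150-5p and miR-181a-5p, did. The lymphoid sum was 228 to 397 counts in scrambled and 467 to 579 in silenced MOLM-14, and 91 to 99 in scrambled and 32 to 39 in silenced THP-1. Both lymphoid and myeloid sums thus moved with the hairpin in THP-1, and the lymphoid sum also in MOLM-14, and their part in the results below was not tested. In THP-1 the lower lymphoid sum came from miR-181a-5p, at 75 to 86 counts in scrambled and 17 to 22 in silenced libraries. There miR-150-5p overlapped, at 12 to 24 and 15 to 18 counts. The summed myeloid markers had 154 to 239 counts in scrambled and 159 to 189 in silenced MOLM-14, and 210 to 227 in scrambled and 77 to 114 in silenced THP-1. There miR-223-3p, miR-155-5p and miR-21-5p were lower without overlap, while miR-146a-5p (22 to 31 and 16 to 27) and miR-142-3p (14 to 23 and 10 to 16) overlapped. Of the 67 tested probes, defined below, 35 were lower without overlap in THP-1 (52.2%), so lower sums were not particular to these markers. Replicates were compared by a chi-square of their counts over all probes, divided by its degrees of freedom, which is 1 for counting error alone. Scrambled MOLM-14 replicates 2 and 3 gave 1.08, within counting error, against 1.53 and 1.59 for the pairs with replicate 1. They were therefore averaged and counted as 1 sample in means and SDs. The fits below kept them as 2 samples, except where they are said to be averaged. The silenced THP-1 pairs gave 0.990, 1.03 and 1.09, with no clearly different pair to set them against, and scrambled THP-1 replicates 1 and 3 gave 1.07 but differed over the tested probes (1.51), so all these were kept apart. Silenced MOLM-14 replicate 2 stood apart from the others of its group, at 4.68 and 3.84 against 1.33 between the other pair, and the fitted MOLM-14 effect of each member is given with and without it.

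To show where probe background lay, 34 measured miRNAs restricted to other tissues were averaged in each library, among them miR-122-5p of liver, miR-206 of muscle, miR-124-3p of neurons and miR-302a-3p of pluripotent cells. In MOLM-14 their mean was 12.8 ± 2.01 counts in the scrambled (SD, n = 2) and 12.6 ± 0.0945 in the silenced group (n = 3). In THP-1 it was 14.6 ± 0.449 in the scrambled and 12.5 ± 1.77 in the silenced group (n = 3 each). Single probes of this list averaged 1 to 23.6 counts over the 12 libraries, and 5 of their 408 values reached 30. The highest value, 52 counts, was of miR-122-5p, which averaged 5.25, and 2 probes of the list were at 1 in all libraries. The 6 probes had 16 to 94 counts, or 1.27 to 7.47 times the tissue-restricted mean of the same library. In 62 of their 72 values they lay above every tissue-restricted probe of the library. All 6 reached 30 counts in 3 or more of the 12 libraries, so much of this follows from their level. The share for other probes of that level was not counted, so it is not a trait particular to the 6. Control probes were not analysed here, and the own background of each of the 6 probes is unknown. That a probe exceeds this mean does not show how much of its count came from miRNA.

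**Figure D1:**
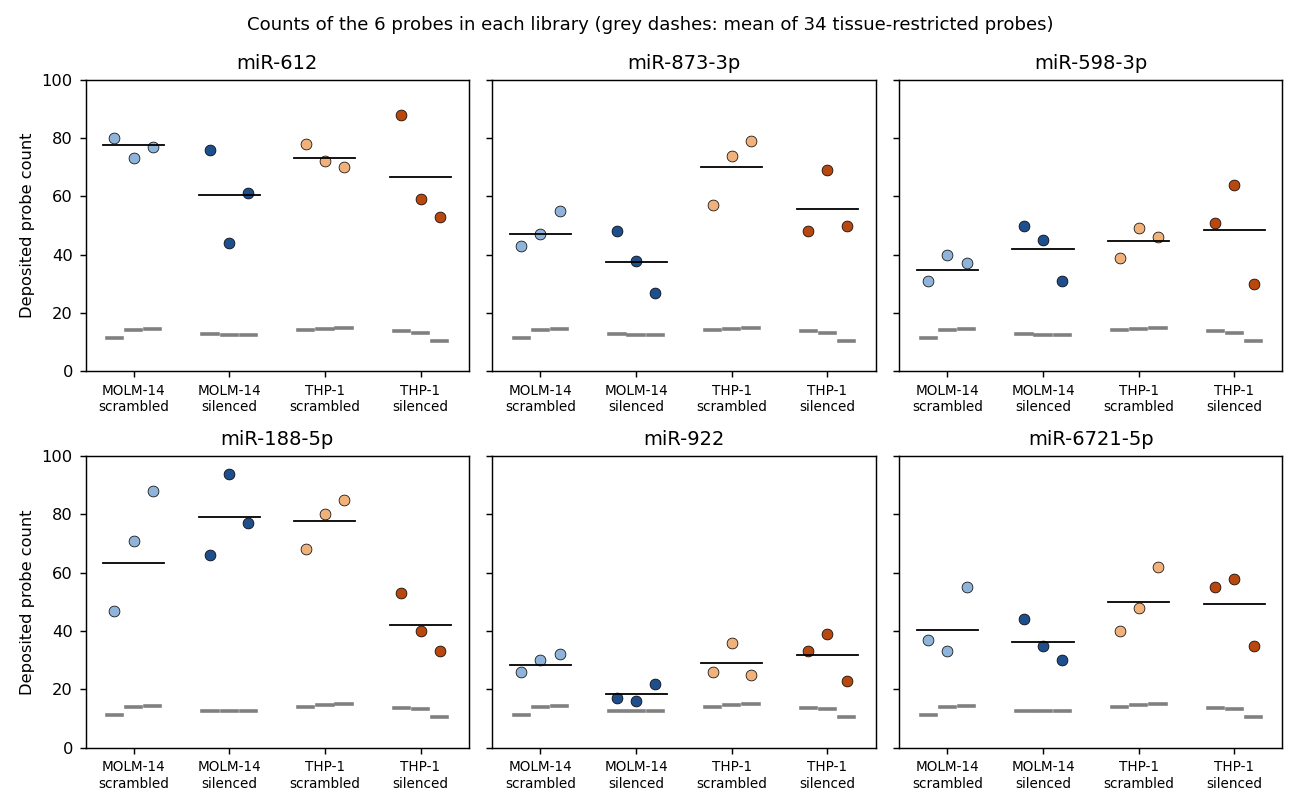
Deposited probe counts (vertical axis, from 0) of the 6 probes in each of the 12 libraries, by cell line and hairpin. Points are libraries in replicate order, black lines are group means with scrambled MOLM-14 replicates 2 and 3 counted as 1 sample, and grey dashes are the mean of 34 tissue-restricted probes in the same library. All points lie between 16 and 94 counts, and miR-188-5p in THP-1 and miR-922 in MOLM-14 are the panels where silenced and scrambled points of a line do not overlap.

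miR-612 had the steadiest scrambled counts. In THP-1 it had 78, 72 and 70 counts in scrambled and 88, 59 and 53 in silenced libraries, so the silenced values lay on both sides of the scrambled ones. The means were 73.3 ± 4.16 and 66.7 ± 18.7 counts (SD, n = 3 each). Relative to the tissue-restricted mean it was at 5.04 ± 0.446 times in scrambled and 5.30 ± 0.990 times in silenced THP-1.

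miR-6721-5p and miR-598-3p also overlapped fully between the THP-1 groups. miR-6721-5p had 40, 48 and 62 counts in scrambled and 55, 58 and 35 in silenced libraries, with means of 50 ± 11.1 and 49.3 ± 12.5 (SD, n = 3 each). miR-598-3p had 39, 49 and 46 counts in scrambled libraries and 51, 64 and 30 in silenced ones. The wide silenced range of miR-598-3p spans all its scrambled values, with means of 44.7 ± 5.13 and 48.3 ± 17.2.

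miR-873-3p had 57, 74 and 79 counts in scrambled and 48, 69 and 50 in silenced THP-1, so silenced replicates 1 and 3 lay below all scrambled libraries and replicate 2 among them. The means were 70 ± 11.5 and 55.7 ± 11.6 (SD, n = 3 each), and 4.79 ± 0.654 and 4.49 ± 0.897 times the tissue-restricted mean. miR-922, the weakest of the 6, had 26, 36 and 25 counts in scrambled and 33, 39 and 23 in silenced THP-1. These values overlap, and they lie close to background, at 1.99 ± 0.411 and 2.51 ± 0.388 times the tissue-restricted mean.

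miR-188-5p departed from the others. Its mean was 77.7 ± 8.74 counts in scrambled and 42 ± 10.1 in silenced THP-1 (SD, n = 3 each), a ratio of 0.541. Over the tissue-restricted mean it was at 5.32 ± 0.441 times in scrambled and 3.34 ± 0.446 times in silenced THP-1, again without overlap. It was the 1 member of 6 whose silenced counts all lay below the scrambled ones in THP-1, as 35 of the 67 tested probes did (52.2%, by counts and by counts over the tissue-restricted mean). No member was higher without overlap there, as 2 of the 67 were (2.99%). Tested probes are those that reached 30 counts in 3 or more of the 12 libraries, and all 6 members passed this filter.

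Over the 6 probes the ratio of mean counts, silenced over scrambled THP-1, ran from 0.541 to 1.09 with a median of 0.948, beside a median of 0.587 over all 67 tested probes and a ratio of 0.857 for the tissue-restricted mean. Ratios within 1.5-fold of 1 were found for 5 of the 6 members and for 28 of the 67 tested probes (41.8%), so 23 other tested probes were as flat by this measure. Among 35 other probes with a scrambled THP-1 mean in the members' range of 29 to 77.7 counts, 12 were within 1.5-fold and 22 were below it. For 21 of these 35 all silenced counts lay below the scrambled ones. For each member the other tested probe nearest in scrambled THP-1 mean on the log2 scale was taken, each once, and for 5 of the 6 its silenced counts all lay below the scrambled ones. miR-23a-3p, the nearest to miR-612, had 71, 75 and 82 counts in scrambled and 13, 15 and 12 in silenced THP-1. miR-181a-5p, the nearest to miR-188-5p, went from 78.7 ± 6.35 to 19.7 ± 2.52 counts (SD, n = 3 each), and let-7g-5p, the nearest to miR-6721-5p, from 52 ± 14.7 to 10.3 ± 4.62. In counts miR-548ah-5p, at a scrambled mean of 48, was as near to miR-6721-5p, and its groups overlapped at a ratio of 0.715, so the count of 5 depends on that choice. miR-25-3p, beside miR-873-3p, went from 70.3 ± 4.04 to 27.7 ± 9.71, and miR-761, beside miR-598-3p, from 45 ± 3.46 to 28.7 ± 2.52. miR-629-5p, beside miR-922, was at 29 ± 3 and 27.3 ± 13.3 counts with overlapping groups.

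The same counts took higher ranks in silenced THP-1 because other probes were lower there. miR-612 was ranked 10 to 18 among the 798 probes in scrambled and 3 to 7 in silenced THP-1. miR-598-3p moved from ranks 27 to 34 to ranks 6 to 13, miR-6721-5p from 17 to 31 to 6 to 8, and miR-922 from 47 to 98 to 12 to 21. miR-188-5p, with fewer counts, was ranked 10 to 14 in scrambled and 7 to 10 in silenced THP-1. Ranks of probe counts are not ranks of miRNA amounts, as probes differ in efficiency and background. In bulk RNA, fewer cells that carry a miRNA and less of it per cell cannot be told apart.

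**Figure D2:**
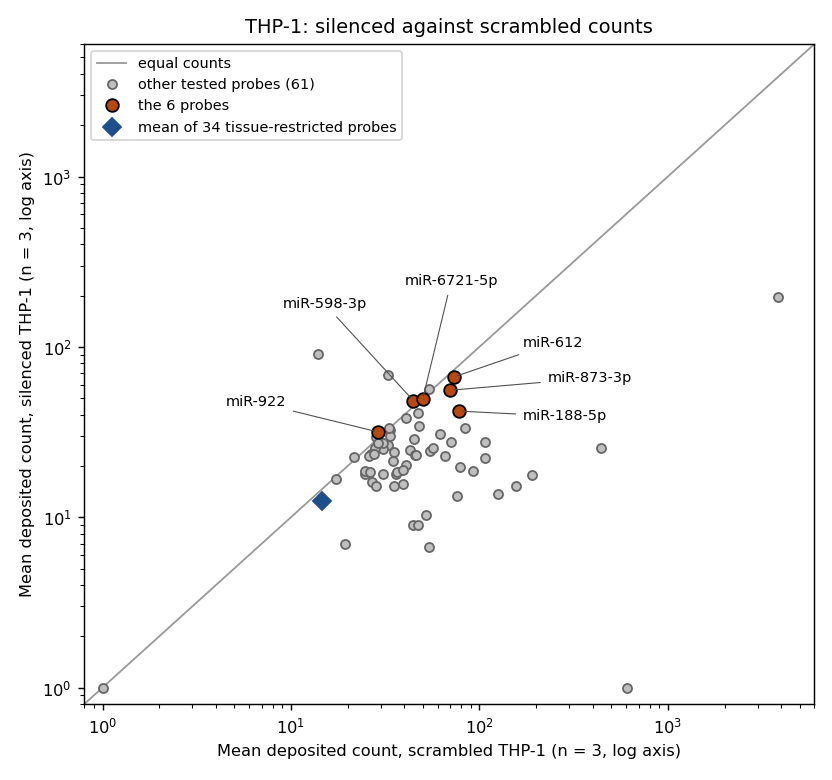
Mean deposited counts of the 67 tested probes in silenced (vertical) against scrambled THP-1 (horizontal), n = 3 libraries each, both axes logarithmic. Orange points are the 6 probes, grey points the other 61, the diamond is the mean of 34 tissue-restricted probes and the line marks equal counts. Most grey points lie below the line, 5 of the 6 orange points lie within 1.5-fold of it, and miR-188-5p lies below at a ratio of 0.541.

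The scaling of the libraries changed the fitted sign of several members in THP-1, a contrast in which 27 of the 67 tested probes passed under TMM (40.3%) and 31 with scaling on the tissue-restricted probes (46.3%). Values are log2 fold changes, silenced over scrambled, from an edgeR quasi-likelihood model of the 4 groups, with standard errors. TMM scaling, which assumes that most tested probes did not change, put the members at a median of 0.67, from -0.14 ± 0.20 for miR-188-5p to 0.89 ± 0.25 for miR-922. Scaling on the tissue-restricted probes put the median at 0.13, from -0.67 ± 0.24 for miR-188-5p to 0.34 ± 0.23 for miR-922, and no scaling put it at -0.08. Over all 67 tested probes the medians were -0.03, -0.55 and -0.76 under these 3 scalings. miR-612 was at 0.60 ± 0.26, 0.08 ± 0.25 and -0.14 ± 0.31, miR-6721-5p at 0.73 ± 0.24, 0.19 ± 0.24 and -0.02 ± 0.30, and miR-873-3p at 0.46 ± 0.24, -0.09 ± 0.24 and -0.33 ± 0.29, so the sign of these 3 depended on the scaling. miR-598-3p (0.87 ± 0.23, 0.32 ± 0.24 and 0.11 ± 0.30) and miR-922 stayed above 0 and miR-188-5p stayed below 0 under all 3. Under TMM miR-188-5p was above 0 when any 1 scrambled THP-1 library was left out, at 0.10, 0.10 and 0.19 without replicates 1, 2 and 3.

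MOLM-14 was not used to choose the probes, so the hairpin effect was tested there. No member of 6 passed (edgeR quasi-likelihood, Benjamini-Hochberg over the 67 tested probes, adjusted p under 0.05), beside 11 of 67 tested probes (16.4%), 4 of them higher (5.97%) and 7 lower (10.4%), and 1 member, miR-188-5p, had an unadjusted p under 0.05, beside 22 of the 67 (32.8%). By DESeq2 no member passed either, beside 9 of 62 probes given an adjusted p (14.5%). These fits counted scrambled replicates 2 and 3 as 2 samples. With that pair averaged into 1 sample, edgeR called 9 of the 67 tested probes and 0 members. The ratio of mean counts was within 1.5-fold of 1 for 5 of the 6 members and for 46 of the 67 tested probes (68.7%). The members' median log2 fold change was -0.01 under TMM, beside -0.03 over all tested probes, and -0.21 beside -0.19 with scaling on the tissue-restricted probes. Without silenced replicate 2, which stood apart, the TMM medians were 0.21 and 0.07. No member passed in that fit either, beside 15 of 67 (22.4%), and 2 members had an unadjusted p under 0.05, beside 19 of 67 (28.4%).

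miR-188-5p had 47, 71 and 88 counts in scrambled and 66, 94 and 77 in silenced MOLM-14. The groups overlap, with the lowest scrambled library well below the rest. Its log2 fold change was 0.48 ± 0.20 (95% interval 0.07 to 0.89, edgeR adjusted p = 0.101), and 0.29 ± 0.23 with scaling on the tissue-restricted probes. With scrambled replicates 2 and 3 averaged into 1 sample it was 0.49 ± 0.24 (edgeR adjusted p = 0.235). Without silenced replicate 1 it passed (0.56 ± 0.22, edgeR adjusted p = 0.0464), in a fit with 21 calls, and without replicate 2, which stood apart, it did not (0.48 ± 0.21, edgeR adjusted p = 0.0976).

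miR-922 had 26, 30 and 32 counts in scrambled and 17, 16 and 22 in silenced MOLM-14. All silenced values lay below all scrambled ones, as for 12 of the 67 tested probes (17.9%), while no member was higher without overlap (3 of 67, 4.48%). The silenced mean of 18.3 ± 3.21 counts (SD, n = 3) was 1.45 ± 0.261 times the tissue-restricted mean. The log2 fold change was -0.41 ± 0.26 (95% interval -0.95 to 0.14, edgeR adjusted p = 0.326), and -0.60 ± 0.25 with scaling on the tissue-restricted probes (edgeR adjusted p = 0.121). Without silenced replicate 2 it was -0.19 ± 0.29 (edgeR adjusted p = 0.659). The difference was therefore not resolved at this depth.

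The other 4 members overlapped between the MOLM-14 groups. miR-598-3p had 31, 40 and 37 counts in scrambled and 50, 45 and 31 in silenced libraries, with a log2 fold change of 0.47 ± 0.24 (95% interval -0.02 to 0.96, edgeR adjusted p = 0.159). Without replicate 2 it was 0.55 ± 0.26 (interval 0.03 to 1.07, edgeR adjusted p = 0.135). miR-612 had 80, 73 and 77 in scrambled and 76, 44 and 61 in silenced libraries, and its low value came from the library that stood apart. Its log2 fold change was -0.09 ± 0.26 (-0.63 to 0.45), and 0.20 ± 0.21 without that library. miR-873-3p had 43, 47 and 55 in scrambled and 48, 38 and 27 in silenced libraries (-0.11 ± 0.25, interval -0.63 to 0.41, and 0.02 ± 0.25 without replicate 2). miR-6721-5p had 37, 33 and 55 in scrambled and 44, 35 and 30 in silenced libraries (0.07 ± 0.25, interval -0.45 to 0.58), and was at -0.13 ± 0.25 with scaling on the tissue-restricted probes and 0.22 ± 0.26 without replicate 2. The intervals of these 4 reach from -0.63 to 0.96 on the log2 scale with all libraries, and up to 1.07 without replicate 2, so an equal level was not shown.

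**Figure D3:**
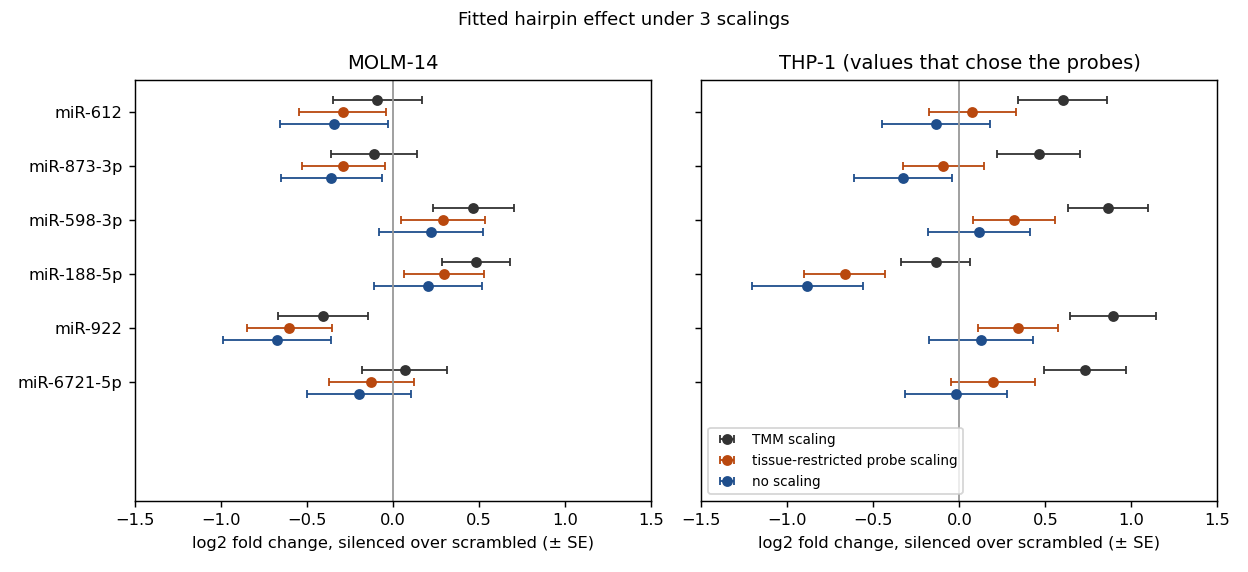
Fitted log2 fold change, silenced over scrambled (horizontal, ± SE), of the 6 probes in MOLM-14 (left) and THP-1 (right) under TMM scaling, scaling on 34 tissue-restricted probes and no scaling. In THP-1, where the counts chose the probes, the median of the 6 moves from 0.67 to 0.13 to -0.08 over the 3 scalings, and miR-188-5p is lowest under each. In MOLM-14 miR-922 is lowest under each.

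Between the lines, the THP-1 side shares the libraries that chose the probes, so these values are a description. In scrambled cells miR-873-3p had 57 to 79 counts in THP-1 and 43 to 55 in MOLM-14 without overlap, as 13 of 67 tested probes were higher in THP-1 (19.4%). None of the 6 was lower there without overlap, as 6 of 67 were (8.96%). Its fitted log2 difference under TMM was 0.37 ± 0.24 for miR-873-3p (95% interval -0.14 to 0.88). The other 5 members overlapped, and their fitted log2 differences ran from -0.25 ± 0.26 for miR-612 to 0.15 ± 0.24 for miR-598-3p. The 95% interval of each of the 6 included 0. In silenced cells miR-188-5p was lower in THP-1 without overlap (33 to 53 against 66 to 94 counts), as were 24 of 67 (35.8%). miR-922 was higher there without overlap (23 to 39 against 16 to 22 counts), as were 4 of 67 (5.97%). Under TMM the fitted log2 differences in silenced cells ran from -0.56 ± 0.20 for miR-188-5p to 1.12 ± 0.26 for miR-922. miR-598-3p was at 0.55 ± 0.23, miR-6721-5p at 0.78 ± 0.24 and miR-873-3p at 0.94 ± 0.25. Only the 95% interval of miR-612 (0.44 ± 0.26) included 0. With scaling on the tissue-restricted probes those of miR-598-3p and miR-6721-5p included 0 as well, and miR-873-3p was at 0.59 ± 0.24 (0.08 to 1.10). The fitted hairpin effect in THP-1 minus that in MOLM-14 was -0.62 ± 0.28 for miR-188-5p and 1.30 ± 0.36 for miR-922 under TMM, and -0.96 ± 0.33 and 0.94 ± 0.34 with scaling on the tissue-restricted probes. These differences run in opposite directions. The other 4 members lay between 0.40 and 0.69 under TMM and between 0.03 and 0.37 with scaling on the tissue-restricted probes.

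The spread within groups was set against counting error, for which the variance over the mean is 1. Counts were not scaled for this, and scrambled MOLM-14 replicates 2 and 3 were kept as 2 samples. Pooled over the 4 groups it was 1.06 for miR-922, 2.00 for miR-873-3p, 2.39 for miR-598-3p, 2.48 for miR-612, 2.58 for miR-6721-5p and 3.03 for miR-188-5p. The median was 2.39 over the 67 tested probes and 1.05 over 32 tissue-restricted probes that were not at 1 throughout. In these unscaled counts miR-922 varied between replicates about as much as counting alone gives, and the other 5 more than that. A difference in library yield adds more to this ratio at higher counts, so probes of unlike level cannot be compared directly. In silenced THP-1 the replicate with the lowest tissue-restricted mean, replicate 3 at 10.5 counts, also had the lowest count of 5 of the 6 members, with miR-873-3p as the exception. The chi-square of replicate pairs allows for library totals, and over the tested probes it was 0.944, 0.954 and 1.06 in silenced THP-1. For the members alone, whether library yield accounts for the spread was not tested.

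miRNAs cut from the same transcripts as the members were then examined. miR-188-5p lies in a group of miRNA genes on the X chromosome with miR-532, miR-362, miR-500a, miR-501, miR-502 and miR-660. The hairpins of MIR188 and MIR873 are shown with both mature arms in capitals, the 5p arm first, because both arms of each were measured.
MIR188: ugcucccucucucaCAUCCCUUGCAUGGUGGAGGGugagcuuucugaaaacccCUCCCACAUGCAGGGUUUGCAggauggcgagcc
MIR873: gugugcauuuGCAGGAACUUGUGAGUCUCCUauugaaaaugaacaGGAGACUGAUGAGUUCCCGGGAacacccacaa
miR-188-3p, from the same hairpin as miR-188-5p, had 5 to 20 counts over the 12 libraries, against 33 to 94 for miR-188-5p. miR-873-5p had 5 to 14 counts, against 27 to 79 for miR-873-3p. Both other arms thus stayed at the level of the tissue-restricted probes in all 4 groups.

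Of 14 measured partner probes, 11 of miR-188-5p and 3 of miR-873-3p, none reached 30 counts in any library, and 1, miR-502-5p, was at 1 in all. The highest partner value was 26 counts, for miR-362-5p in scrambled THP-1. Median levels of the partners were 0.0741 to 1.29 times the tissue-restricted mean. In THP-1 miR-660-3p had 15 to 17 counts in scrambled and 6 to 10 in silenced libraries, and miR-502-3p 13 to 16 and 5 to 12, both lower without overlap. miR-532-5p had 7 to 9 and 10 to 16 counts and was higher without overlap. Of 716 untested probes above 1 count on average, 76 were lower (10.6%) and 10 higher (1.4%) without overlap in THP-1, beside these 2 and 1 of 14 partners. No partner passed in either line in an edgeR quasi-likelihood fit without the count filter, the lowest adjusted p being 0.383 (miR-532-5p in THP-1, log2 fold change 0.83). These partners lay too near background for the counts to resolve such differences.

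**Figure D4:**
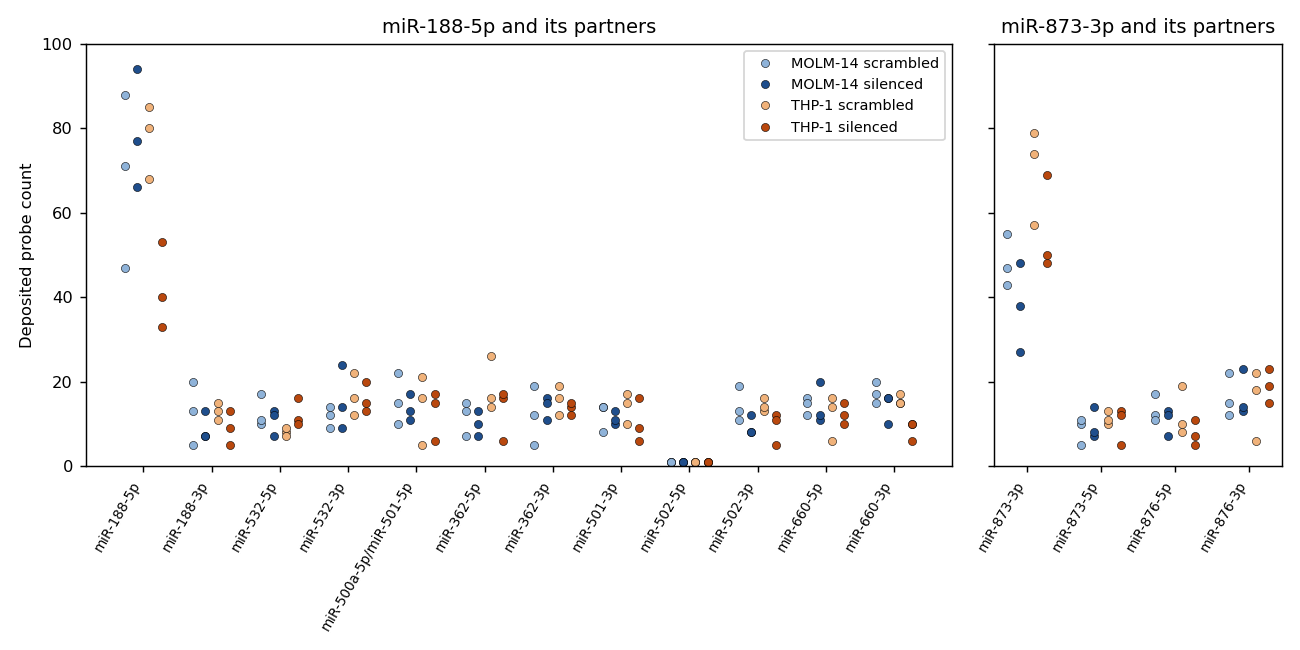
Deposited counts (vertical axis, from 0) in the 12 libraries of miR-188-5p with 11 partner probes (left) and of miR-873-3p with 3 partner probes (right), coloured by group. The members lie at 33 to 94 and 27 to 79 counts, while no partner exceeds 26 counts in any library.

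The 4 members with a sequence had a share of G and C above the median, from percentile 61.2 (miR-922) to 84.9 (miR-188-5p) of the matched miRNAs. The share was 61.9% in miR-188-5p, 59.1% in miR-873-3p, 56.5% in miR-6721-5p and 52.2% in miR-922, beside a median of 47.8% over 688 measured miRNAs matched by name. The share of A and G was 65.2% in miR-922 and miR-6721-5p and 63.6% in miR-873-3p, beside a median of 50%, and 52.4% in miR-188-5p. The letters GGAG, noticed in these sequences and then counted on the given strand, occur in 3 of the 4 and in 13.2% of the matched miRNAs. Across 616 matched probes that were not tested and were above 1 count, mean count had a Spearman rho of -0.101 with the G and C share and 0.0126 with the A and G share. Probes are not independent replicates, and these are descriptions. Untested probes with GGAG had a median of 13 counts and those without 13.4. These probes were kept because their counts were low, so the comparison does not bear on probes with a raised background.

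The patterns most like the members' average were found by correlating log2 counts over the tissue-restricted mean with the average of the 6 members over the 12 libraries. Pearson r was 0.817 for miR-192-5p, 0.722 for miR-1183, 0.706 for miR-363-3p, 0.670 for miR-423-3p and 0.651 for miR-1306-5p, with a median of -0.149 over the 61 other tested probes. miR-192-5p had 29 to 68 counts. Likeness over the 12 libraries did not require flat counts in THP-1. miR-423-3p was lower without overlap there, with a mean of 46 counts in scrambled and 23.3 in silenced libraries. The groups of the other named probes overlapped in THP-1. The values share the library and its divisor, and no p is given. Among the members themselves the 15 pairwise values ran from -0.685 (miR-188-5p with miR-922) to 0.695 (miR-873-3p with miR-6721-5p). Their median was 0.0951, so the average is not a pattern that all members share. All 5 values of miR-188-5p were negative, from -0.685 to -0.352.

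The question of whether the flat counts come from miRNA or from a fixed probe background is not settled by these values. The probes stood at 1.27 to 7.47 times the tissue-restricted mean, and all 6 had passed the count filter. miR-188-5p had groups without overlap in THP-1, where 35 of 67 tested probes were lower without overlap. miR-922 had them in MOLM-14, where 12 of 67 were. The THP-1 counts had chosen the probes, and the miR-922 difference was not resolved. miR-612, miR-598-3p and miR-6721-5p overlapped in both lines and between the lines in scrambled cells. miR-873-3p overlapped within both lines but not between them in scrambled cells. The share of miRNA and of probe background in each count was not tested.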

How the data were processed

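Probe counts of 798 human miRNA probes in 12 samples were used as the authors deposited them. They were read as counts because all values are whole and totals differ. Any background correction or lane scaling by the authors is not given in the sources used here, and 15 probes at 1 in every library may be floored values. Probes that reached 30 counts in 3 or more libraries were tested with the edgeR 4.0.16 quasi-likelihood method (R 4.3.3, robust, TMM over the 67 tested probes, 4 group means), with Benjamini-Hochberg adjustment at 0.05. Alternatives were DESeq2 1.42.0, limma 3.58.1 with pseudocounts of 1 and 10, other scalings and filters, a replicate block, the averaged pair, single lines and leaving out each library. The fit was tested on simulated data. The members and lists were chosen with earlier results of these data known. Named were the members, their partners, up to 4 tissue-restricted miRNAs, the nearest probe in level to each member and the 5 most alike in pattern. Matching to RefSeq was by name. Sequence was not printed for miR-612 and miR-598-3p. Intervals are 95% from the fit.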

Additional observations from a re-analysis of the deposited data

How the results depend on the processing

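In MOLM-14 no member passed under any of the 26 alternatives except 1: the number of members called ran from 0 to 1 over the fits without 1 library, the 1 being miR-188-5p without silenced replicate 1. The number of tested probes called, 11, ran from 9 to 21 over these fits, and was 18 with scaling on the tissue-restricted probes and without silenced MOLM-14 replicate 2 (chosen after seeing the data, as were that scaling without a count filter and edgeR without robust moderation). miR-598-3p and miR-188-5p were above 0 and miR-922 below 0 in all 26, while miR-612 was above 0 in 2, miR-873-3p in 3 and miR-6721-5p in 18. In THP-1 the members' median log2 fold change, 0.67, was 0.13 with scaling on the tissue-restricted probes, -0.078 with no scaling, 0.13 without the count filter, 0.29 with a filter of 20 counts, 0.13 with that scaling and no filter and 0.14 with that scaling and without silenced MOLM-14 replicate 2. It ran from 0.51 to 0.95 over the fits without 1 library. With the replicate number as a block 11 probes and 0 members were called in MOLM-14 and the THP-1 median was 0.67. Deviations of same-numbered samples had correlations of 0.363, 0.412 and -0.232 in MOLM-14 and 0.119, -0.431 and -0.255 in THP-1, so the numbers were not taken as pairs. At 16 to 94 counts per value, the members' standard errors in MOLM-14 under TMM were 0.20 to 0.26 on the log2 scale. Changes not well beyond these were hard to resolve.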
